A study of Homo sapiens with 6 samples.

Results

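The genes described here encode the protein subunits of the mitochondrial ribosome, in HSC-3 cells kept in simulated microgravity or under normal gravity. They are the protein-coding entries of the count table whose symbol is MRPL or MRPS followed by a number and at most 1 letter. The table holds 78 of them among 22941 genes, 49 with an MRPL symbol, given to proteins of the large subunit, and 29 with an MRPS symbol, given to proteins of the small subunit. HSC-3 is an established human cell line from an oral squamous cell carcinoma. The treated cells were grown in the rotating vessel of a Rotary Cell Culture System, which models microgravity, and the controls were the same line under normal gravity. No allele or transgene separates the groups, the medium given is the same for both, and the sources used here do not give the time in culture. RNA was sequenced from 3 simulated microgravity libraries and 3 normal gravity libraries, which the titles call biological replicates without saying how separate the cultures were. The p-values therefore measure only how these libraries vary, which may be partly technical.

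The mitochondrial ribosome, or mitoribosome, translates the few messenger RNAs encoded by mitochondrial DNA, which specify core subunits of the respiratory chain and of ATP synthase. Its ribosomal RNAs are transcribed in the organelle, whereas every one of its proteins is encoded in the nucleus, made in the cytosol and imported. Some of these proteins have counterparts in ribosomes of all kingdoms (names beginning with u), some in bacteria only (b), and others are found only in mitochondria (m). Cells that lose mitochondrial translation are left without a working respiratory chain.

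Total counts were 34264008 to 36317678 in the simulated microgravity libraries and 37276166 to 38861233 in the normal gravity libraries. Values are CPM (counts scaled to a common library size with TMM factors). Each log2 fold change is the simulated microgravity value minus the normal gravity value, so a negative one means a lower level in simulated microgravity relative to the other transcripts of the library. In bulk RNA, fewer cells of a type and less RNA per cell cannot be told apart. Normal gravity replicate 3 stood apart from its group, with a chi-square per degree of freedom of 94.1 and 142 against replicates 1 and 2, which gave 17.9 between them. Squamous epithelial markers summed to 5198 to 6147 CPM in simulated microgravity and 11996 to 20439 CPM in normal gravity. Single markers of this list moved both ways. Of 8 tested, KRT14, KRT5 and TP63 fell, CDH1, EPCAM and KRT17 rose, SFN and KRT6A were not called, and the median log2 fold change was 0.04. KRT14, a basal keratin, averaged 292 ± 15.0 CPM in simulated microgravity and 3106 ± 1008 CPM in normal gravity (SD, n = 3 each), whereas CDH1, the epithelial cadherin, rose by 1.26 ± 0.14 on the log2 scale (edgeR, adjusted p = 0.000145). Fibroblast markers, almost all COL1A1, summed to 18.1 to 18.9 CPM in simulated microgravity and 12.7 to 30.7 CPM in normal gravity. Among leukocyte markers, the pan-leukocyte gene PTPRC averaged 0.075 CPM in simulated microgravity and 0.176 CPM in normal gravity. CD68, which is not restricted to leukocytes, averaged 188 CPM in simulated microgravity and 93.6 CPM in normal gravity.

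Most mitoribosomal protein transcripts were lower in simulated microgravity. Of 77 members with enough counts to test, 43 fell and 3 rose at an adjusted p under 0.05 (edgeR quasi-likelihood test, Benjamini-Hochberg adjustment over all 14736 tested genes), and 31 were not called. Thus 55.8% of the members were called lower, against 29.3% of all tested genes, and 3.90% were called higher, against 28.2%. The median log2 fold change was -0.44 over the members and -0.01 over all tested genes, and 66 members had a negative value. Changes were moderate, and only 6 of the lower members fell at least 2-fold, against 15.6% of all tested genes. The interquartile range of the log2 fold change was 0.60 over the members and 1.30 over all tested genes. Every simulated microgravity library lay below every normal gravity library for 51 members, against 33.3% of all tested genes, and above for 3, against 33%. For the other 23 members the groups overlapped.

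**Figure D1:**
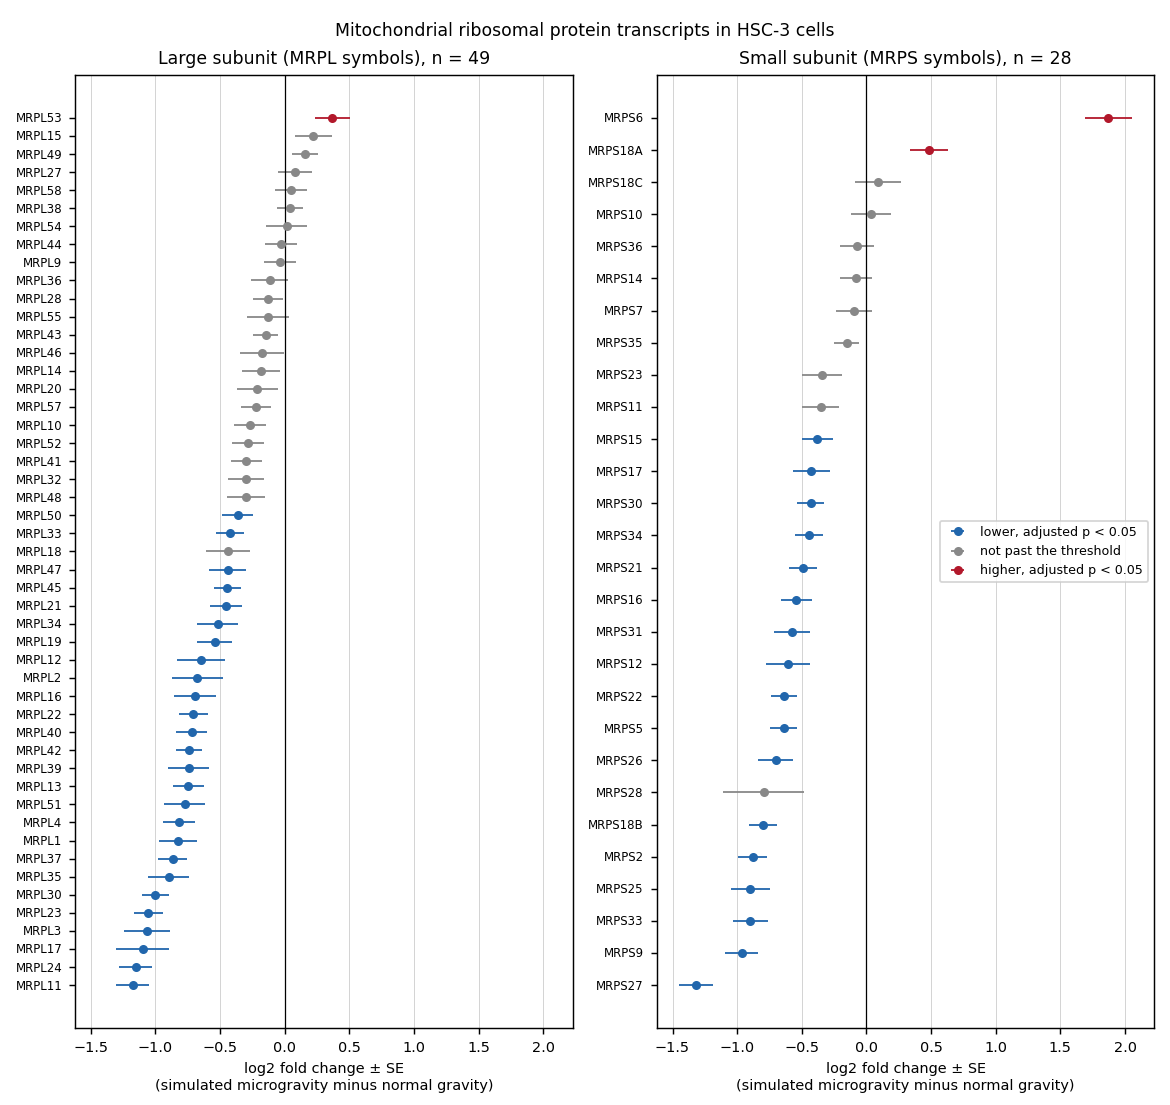
Log2 fold change (simulated microgravity minus normal gravity) with its standard error for the 49 tested MRPL and 28 tested MRPS members, ordered by value. Most points lie left of 0, with 26 MRPL and 17 MRPS members called lower, while MRPS6 stands alone at 1.87.

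Transcripts of both subunits were lower. Of the 49 MRPL members 26 fell, 1 rose and 22 were not called, with a median log2 fold change of -0.44. Of the 28 MRPS members tested 17 fell, 2 rose and 9 were not called, with a median of -0.47. Without normal gravity replicate 3 the lower counts were 30 MRPL and 20 MRPS members. All genes called lower also grew in number in that fit, to 4722 of 15218 tested, from 4325 of 14736. Symbols do not always name the subunit. RefSeq lists MRPS18A as mL66 and MRPS30 as mL65, both proteins of the large subunit, and gives no unified ribosomal name for MRPS24, MRPS28 or MRPS36. Grouped by unified name, 27 of 51 large subunit members fell and 2 rose, with a median of -0.43, and 16 of 24 small subunit members fell and 1 rose, with a median of -0.52.

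Summed over members, transcript levels told the libraries of the groups apart. The MRPL members together reached 1607, 1679 and 1793 CPM in simulated microgravity, against 2549, 2491 and 2169.8 CPM in normal gravity. The MRPS members reached 957, 1005 and 1036 CPM in simulated microgravity, against 1402, 1369 and 1259.95 CPM in normal gravity. For each subunit the highest simulated microgravity library stayed below the lowest normal gravity library, which was replicate 3. The members took 0.252%, 0.276% and 0.283% of all counts in simulated microgravity, against 0.398%, 0.389% and 0.332% in normal gravity. The ratio of MRPL to MRPS sums was 1.68, 1.67 and 1.73 in simulated microgravity, against 1.82, 1.82 and 1.72 in normal gravity, so the groups overlapped. Leaving MRPS6 out, the ratio was 1.85, 1.78 and 1.86 in simulated microgravity and 1.85, 1.85 and 1.74 in normal gravity.

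**Figure D2:**
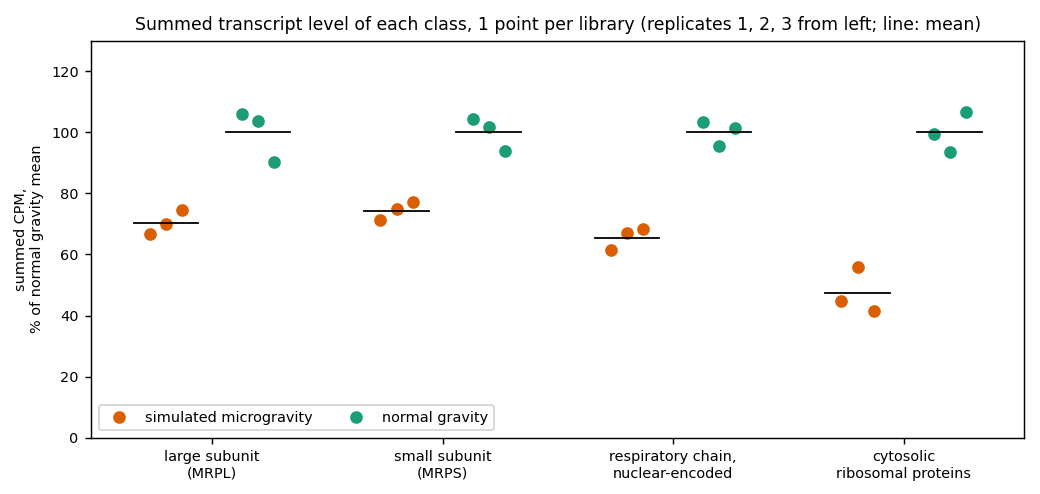
Summed CPM of each class as a percentage of its normal gravity mean, 1 point per library, with a line at the group mean. Simulated microgravity points lie below normal gravity points in all 4 classes, and the cytosolic ribosomal proteins lie lowest.

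The members that carry the findings were looked up in the RefSeq promoter table for GRCh38.p14, which had an entry for 70 of the 78. Shown are the 120 bases upstream of the annotated start, 5′ to 3′ on the strand of the gene, for the member that fell most in each subunit (MRPS27 and MRPL11), for MRPS22 and MRPL40, and for the 3 members that rose (MRPS6, MRPS18A and MRPL53). MRPS22 and MRPL40 are the lower members with the smallest adjusted p that hold the letters CCGGAAG in this stretch, have a start equal to the annotated gene start and have no gene starting head to head within 120 bases. Capitals mark CCGGAAG on either strand, the core recognised by ETS factors such as GABPA.
MRPS27, chr5:72320241-72320360, minus strand: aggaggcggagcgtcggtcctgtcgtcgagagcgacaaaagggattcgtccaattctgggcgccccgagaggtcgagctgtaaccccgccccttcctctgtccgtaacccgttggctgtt
MRPL11, chr11:66438849-66438968, minus strand: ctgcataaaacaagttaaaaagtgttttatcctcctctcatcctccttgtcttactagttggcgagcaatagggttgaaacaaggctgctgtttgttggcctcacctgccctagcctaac
MRPS22, chr3:139343874-139343993, plus strand: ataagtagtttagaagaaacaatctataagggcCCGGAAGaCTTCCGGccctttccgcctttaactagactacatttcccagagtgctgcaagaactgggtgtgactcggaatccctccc
MRPL40, chr22:19432425-19432544, plus strand: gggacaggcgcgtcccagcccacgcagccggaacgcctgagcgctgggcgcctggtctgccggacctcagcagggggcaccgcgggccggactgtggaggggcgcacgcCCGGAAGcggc
MRPS6, chr21:34073458-34073577, plus strand: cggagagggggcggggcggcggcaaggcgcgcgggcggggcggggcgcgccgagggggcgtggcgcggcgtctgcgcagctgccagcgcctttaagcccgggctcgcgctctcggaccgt
MRPS18A, chr6:43687792-43687911, minus strand: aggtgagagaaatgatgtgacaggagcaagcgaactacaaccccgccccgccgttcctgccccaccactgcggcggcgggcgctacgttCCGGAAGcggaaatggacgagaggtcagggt
MRPL53, chr2:74472681-74472800, minus strand: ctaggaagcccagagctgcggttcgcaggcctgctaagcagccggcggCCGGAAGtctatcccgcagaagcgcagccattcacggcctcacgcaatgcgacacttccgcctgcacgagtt
MRPS22 holds a copy on each strand, the first starting 87 bases upstream. In MRPL40 the copy starts 11 bases upstream, in MRPS18A 31 and in MRPL53 72. Neither MRPS27, MRPL11 nor MRPS6 has these letters in the stretch shown. MRPS22 and MRPL40 were chosen for holding them.

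Over the whole entry, 250 bases before to 50 after each start, CCGGAAG was present on either strand in 29 of 70 members, 41.4%, against 18.9% of the other tested protein-coding genes and 10.7% of all 27305 promoters. AAGATGGCG, the YY1 core, was present in 18.6% of members, against 3.84% of the other tested protein-coding genes and 1.85% of all promoters. The NRF1 palindrome, GCGCA followed by its reverse complement, was in 1.43% of members, 2.28% of the other tested protein-coding genes and 1.36% of all promoters, and CACGTG, the E-box read by MYC, in 10.0%, 10.1% and 7.44%. Of all tested genes 29.3% were called lower, a share to be read beside the counts of members that follow. Members with CCGGAAG had a median log2 fold change of -0.42, with 15 of 29 tested called lower, and members without it -0.43, with 23 of 40. With AAGATGGCG the median was -0.29, with 5 of 12 called lower, and without it -0.44, with 33 of 57. With CACGTG it was -0.12, with 3 of 7 called lower, and without it -0.43, with 35 of 62. These are letter matches in a fixed window, not measured binding.

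Of the 3 stalk proteins of the large subunit given here, 2 fell and 1 was not called, where 29.3% of all tested genes fell. They were grouped after their values were seen, so the count is a description only. MRPL11 (uL11m), a protein of the stalk base where translation factors dock, had 65.0, 70.7 and 75.8 CPM in simulated microgravity, against 170.4, 173 and 134 CPM in normal gravity. Its log2 fold change was -1.18 ± 0.13 (SE; adjusted p = 0.000122), the groups did not overlap, and normal gravity replicate 3 was the lowest of its group. MRPL12 (bL12m), the stalk protein itself, shares 68.2% of its exonic bases with another GENCODE gene and had 48.5, 49.8 and 58.0 CPM in simulated microgravity, against 95.6, 90.5 and 58.1 CPM in normal gravity, a log2 fold change of -0.65 ± 0.19 (adjusted p = 0.0166). Its highest simulated microgravity library and normal gravity replicate 3 were nearly level, and the call was lost without normal gravity replicate 1 (adjusted p = 0.0580), simulated microgravity replicate 1 (0.0677) or simulated microgravity replicate 2 (0.0611). MRPL10 (uL10m), which joins the stalk to the ribosome, was not called at -0.27 ± 0.13 (adjusted p = 0.0990).

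Proteins of the exit tunnel or its opening were picked for description after their values were seen. Those named here do not stand for all proteins of that region. MRPL24 (uL24m), which sits at the opening, had 25.7, 27.7 and 28.1 CPM in simulated microgravity, against 66.1, 64.1 and 50.9 CPM in normal gravity, a log2 fold change of -1.15 ± 0.13 (adjusted p = 0.00014). MRPL23 (uL23m), a neighbour at the same opening, had 22.1, 23.6 and 20.0 CPM in simulated microgravity, against 47.6, 44.1 and 44.9 CPM in normal gravity, a log2 fold change of -1.06 ± 0.11 (adjusted p = 0.000119). In neither gene did the groups overlap, and for MRPL23 normal gravity replicate 3 lay between the other 2. MRPL4 (uL4m) and MRPL22 (uL22m), which form the narrow part of the tunnel in bacteria, fell by 0.82 and 0.71 on the log2 scale, and MRPL47 (uL29m) fell by 0.44. The MRPL47 call was lost without normal gravity replicate 1 or 2 (adjusted p = 0.0910 and 0.0746) and without simulated microgravity replicate 1 or 2 (0.0786 and 0.0897). With the length and GC correction its log2 fold change was -0.13 (adjusted p = 0.449). MRPL45 (mL45), which faces the inner membrane at the tunnel exit, also fell by 0.44.

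Of the proteins near the peptidyl transferase centre, MRPL3 (uL3m) fell by 1.07 (adjusted p = 0.00114), MRPL16 (uL16m) by 0.70 and MRPL2 (uL2m) by 0.68. The MRPL2 call was lost without normal gravity replicate 1 or 2 (adjusted p = 0.0655 and 0.0618) and without simulated microgravity replicate 2 or 3 (0.0598 and 0.0561). MRPL27 (bL27m) was not called, at 0.08 ± 0.13. MRPL30 (uL30m) had the smallest adjusted p among MRPL members, with 53.8, 65.6 and 64.5 CPM in simulated microgravity, against 122, 124 and 121 CPM in normal gravity. Its 3 normal gravity libraries were nearly level, and the log2 fold change was -0.9997 ± 0.11 (adjusted p = 0.000114). MRPL17 (bL17m) completed the MRPL members that fell at least 2-fold, with 17.95, 27.9 and 27.2 CPM in simulated microgravity, against 58.7, 57.6 and 40.3 CPM in normal gravity, a log2 fold change of -1.10 ± 0.21 (adjusted p = 0.00222).

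Mitochondria-specific large subunit proteins went several ways. MRPL37 (mL37) had 69.0, 74.2 and 66.8 CPM in simulated microgravity, against 130.2, 141 and 112 CPM in normal gravity, and fell by 0.87 ± 0.11 on the log2 scale (adjusted p = 0.000328). MRPL42 (mL42) had 30.5, 33.2 and 34.6 CPM in simulated microgravity, against 53.4, 54.0 and 56.8 CPM in normal gravity, and fell by 0.74 ± 0.10 (adjusted p = 0.000416). Both had groups well apart. MRPL49 (mL49), with the highest mean CPM of the members in simulated microgravity, had 146, 138 and 157 CPM there, against 141, 125 and 129.5 CPM in normal gravity, and its groups overlapped (log2 fold change 0.15 ± 0.10, adjusted p = 0.216). MRPL44 (mL44), which carries a ribonuclease III-like domain, had 25.3, 22.7 and 25.9 CPM in simulated microgravity, against 26.7, 25.04 and 23.8 CPM in normal gravity. MRPL54 (mL54) had 14.4, 13.2 and 14.1 CPM in simulated microgravity, against 16.1, 12.9 and 12.3 CPM in normal gravity. The groups overlapped for both, with log2 fold changes of -0.03 ± 0.12 (adjusted p = 0.848) and 0.01 ± 0.16 (adjusted p = 0.947). MRPL9 (bL9m), a protein shared with bacteria, was as level, with 20.5, 21.6 and 21.5 CPM in simulated microgravity, against 20.6, 23.3 and 21.2 CPM in normal gravity (log2 fold change -0.04 ± 0.12, adjusted p = 0.821). MRPL58 (mL62), a peptidyl-tRNA hydrolase built into the ribosome, was not called either, at 0.05 ± 0.13.

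MRPL53 (mL53) was the 1 MRPL member called higher, with 25.6, 24.1 and 28.9 CPM in simulated microgravity, against 22.1, 20.5 and 18.2 CPM in normal gravity. The groups did not overlap, the log2 fold change was 0.37 ± 0.14 and the adjusted p of 0.0451 was close to the threshold. The call was lost whichever of the 6 libraries was left out, with adjusted p from 0.0524 to 0.149.

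**Figure D3:**
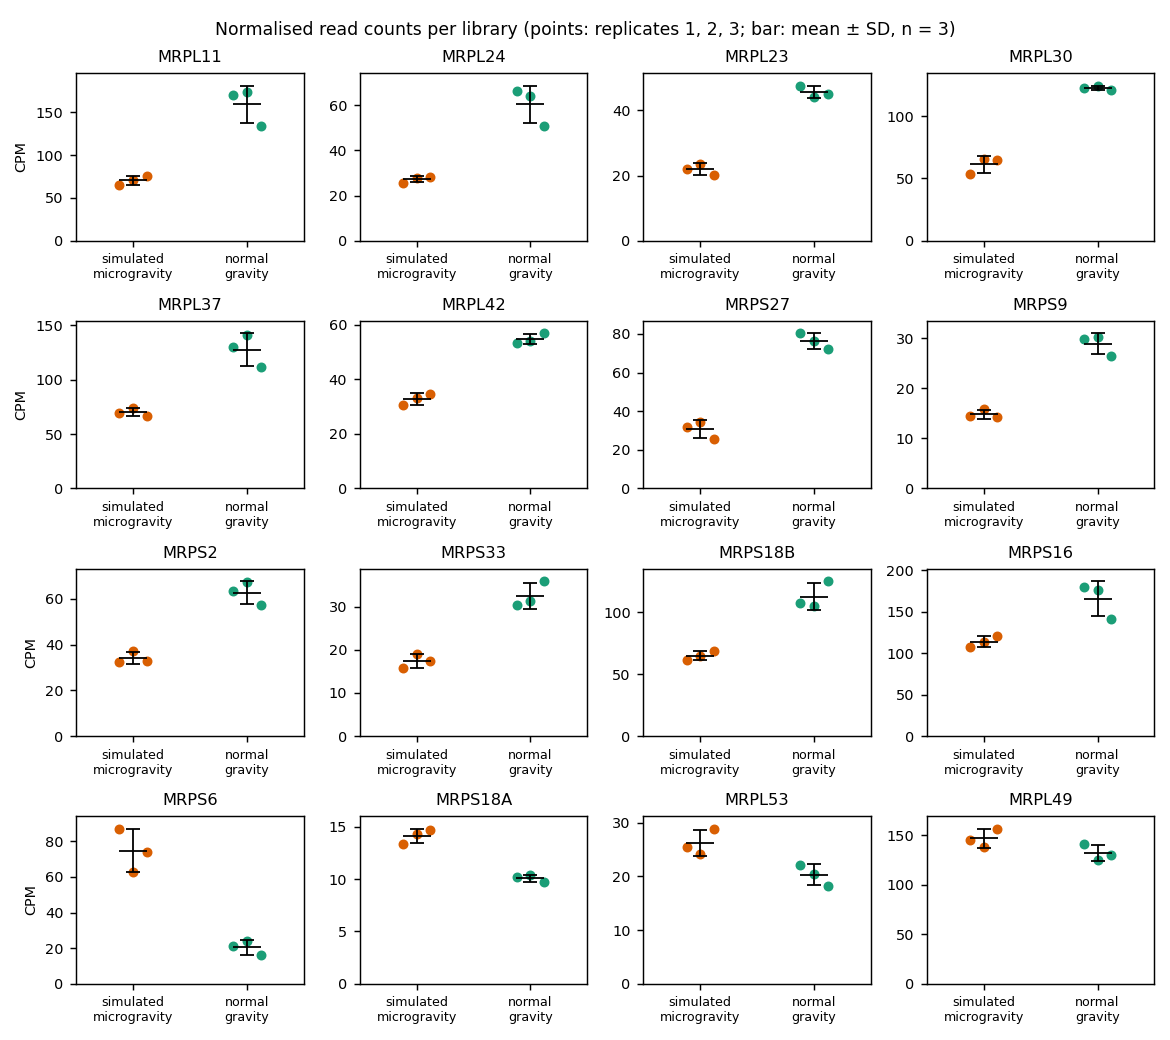
CPM of 16 members in each library, simulated microgravity left and normal gravity right, replicates 1 to 3 from left to right, with the group mean and SD (n = 3). The first 12 panels show members that fell, MRPS6, MRPS18A and MRPL53 rose, and MRPL49 overlapped between groups.

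In the small subunit the largest fall was that of MRPS27 (mS27), a pentatricopeptide repeat protein, a kind that binds RNA. It had 31.7, 34.6 and 25.5 CPM in simulated microgravity, against 80.3, 76.1 and 72.3 CPM in normal gravity, a log2 fold change of -1.32 ± 0.13 (adjusted p = 8.26e-05). Its highest simulated microgravity library was far below the lowest normal gravity one. MRPS9 (uS9m), whose bacterial counterpart reaches towards the peptidyl site, had 14.4, 15.8 and 14.2 CPM in simulated microgravity, against 29.8, 30.3 and 26.4 CPM in normal gravity, and fell by 0.97 ± 0.13 (adjusted p = 0.000346). MRPS2 (uS2m) had 32.3, 37.1 and 33.0 CPM in simulated microgravity, against 63.4, 67.5 and 57.5 CPM in normal gravity, and fell by 0.88 ± 0.11 (adjusted p = 0.00027). In both genes the simulated microgravity libraries lay close together.

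MRPS33 (mS33) had 15.8, 19.1 and 17.5 CPM in simulated microgravity, against 30.5, 31.2 and 35.97 CPM in normal gravity, and fell by 0.90 ± 0.13 (adjusted p = 0.000615). Here normal gravity replicate 3 was the highest of its group. MRPS16 (bS16m), with the highest mean CPM of the members in normal gravity, had 107, 114 and 121 CPM in simulated microgravity, against 180.3, 176 and 141 CPM in normal gravity, and fell by 0.54 ± 0.12 (adjusted p = 0.00479). MRPS22 (mS22), whose promoter is shown above, had 35.6, 32.6 and 32.9 CPM in simulated microgravity, against 53.9, 53.9 and 49.3 CPM in normal gravity, and fell by 0.64 ± 0.10 (adjusted p = 0.000898). MRPS12 (uS12m), a protein of the decoding centre, fell by 0.61 ± 0.17 (adjusted p = 0.0159), a call lost without normal gravity replicate 1 (0.0718) or simulated microgravity replicate 1 (0.0695). MRPS7 (uS7m), a protein of the small subunit head, was not called at -0.09 ± 0.14 (adjusted p = 0.585). MRPS10 (uS10m) had 21.3, 20.4 and 21.6 CPM in simulated microgravity, against 21.98, 23.2 and 16.7 CPM in normal gravity, overlapping groups with a log2 fold change of 0.03 ± 0.15 (adjusted p = 0.875). MRPS28 fell short of the threshold despite groups that did not overlap, with 1.84, 1.53 and 1.29 CPM in simulated microgravity, against 3.06, 2.95 and 2.07 CPM in normal gravity (log2 fold change -0.79 ± 0.31, adjusted p = 0.0558), and was the lowest of the tested members per kilobase in both groups.

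MRPS36 had 17.9, 17.8 and 20.1 CPM in simulated microgravity, against 19.5, 20.5 and 18.8 CPM in normal gravity, and was not called (log2 fold change -0.07 ± 0.13, adjusted p = 0.644). RefSeq gives it the symbol KGD4, and the protein is now known as a subunit of the 2-oxoglutarate dehydrogenase complex. MRPS24 was the 1 member under the count filter, with 9, 3 and 8 counts in simulated microgravity and 7, 2 and 3 counts in normal gravity. In the GENCODE annotation 77.0% of its exonic bases are shared with the readthrough gene URGCP-MRPS24, which was not analysed here, so reads in the shared bases cannot be told apart. URGCP, the upstream gene, averaged 192 ± 26.7 CPM in simulated microgravity and 77.9 ± 3.47 CPM in normal gravity.

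The paralogs MRPS18A, MRPS18B and MRPS18C, copies of a bacterial S18-type protein that occupy different sites in the mitoribosome, moved differently. MRPS18B (mS40) had 61.0, 64.8 and 68.2 CPM in simulated microgravity, against 107, 105 and 125.1 CPM in normal gravity, and fell by 0.80 ± 0.11 on the log2 scale (adjusted p = 0.000362). MRPS18A (mL66) had 13.3, 14.3 and 14.7 CPM in simulated microgravity, against 10.2, 10.4 and 9.72 CPM in normal gravity, and rose by 0.48 ± 0.15 (adjusted p = 0.0199). MRPS18C (bS18m) had 15.8, 13.6 and 17.7 CPM in simulated microgravity, against 16.1, 16.2 and 11.95 CPM in normal gravity, and was not called (0.09 ± 0.18, adjusted p = 0.691). Groups were apart for MRPS18B and MRPS18A and overlapped for MRPS18C. The differences between these paralogs were not tested. The MRPS18A call was lost without simulated microgravity replicate 3 (adjusted p = 0.0606), normal gravity replicate 1 (0.0727) or normal gravity replicate 2 (0.0508). Genes on the opposite strand overlap 56.9% of the exonic bases of MRPS18A (RSPH9) and 78.9% of those of MRPS18C (ABRAXAS1). RSPH9 was under the count filter and was not tested, and ABRAXAS1 fell by 0.66. Whether the counting used strand is not stated.

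MRPS6 (bS6m), whose bacterial counterpart pairs with S18, went against the rest by a wide margin. It had 87.2, 62.8 and 74.1 CPM in simulated microgravity, against 21.2, 24.0 and 16.02 CPM in normal gravity. The lowest simulated microgravity library was more than double the highest normal gravity one, and the log2 fold change was 1.87 ± 0.18 (adjusted p = 7.26e-05). It was the only member at least 2-fold higher, against 14.9% of all tested genes. Per kilobase of transcript it ranked 1 of 78 members in simulated microgravity, at 75.5 CPM per kb, and 51 in normal gravity, at 20.6. In RefSeq it spans chr21:34073578-34143030 on the plus strand of GRCh38.p14 and shares its annotated start with SLC5A3, the sodium-coupled myo-inositol transporter of the osmotic stress response. SLC5A3 had 390.3, 294 and 241 CPM in simulated microgravity, against 69.5, 81.4 and 75.5 CPM in normal gravity, and rose by 2.03 ± 0.18 (adjusted p = 4.61e-05). In the GENCODE annotation 31.9% of the exonic bases of MRPS6 are also exonic in other genes of the same strand. SLC5A3 covers 17.8% and the processed transcript AP000317.2 covers 29.7%, in part the same bases. Reads in the shared bases cannot be told apart, and their part in the MRPS6 values was not tested. Over replicates 1 to 3 of simulated microgravity, MRPS6 was highest in replicate 1 as was SLC5A3, while replicates 2 and 3 came in opposite order.

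**Figure D4:**
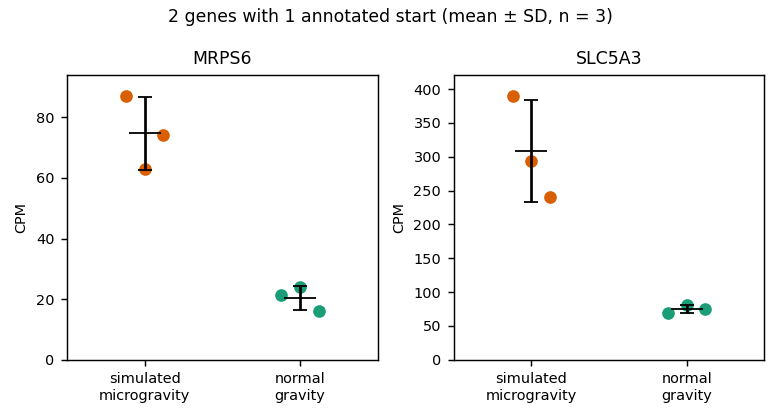
CPM of MRPS6 (left) and SLC5A3 (right) in each library, with the group mean and SD (n = 3). Both genes were higher in all 3 simulated microgravity libraries, by 1.87 and 2.03 on the log2 scale.

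Levels set per kilobase of transcript changed their order in part. MRPL11 ranked 15 in simulated microgravity, at 43.9 CPM per kb, and 1 in normal gravity, at 99.2. MRPL37 ranked 13 in simulated microgravity (47.2 CPM per kb) and 2 in normal gravity (86.1). MRPL49 had the opposite order, with rank 2 and 72.7 CPM per kb in simulated microgravity, against rank 14 and 65.3 in normal gravity. MRPS34 (mS34) stayed near the top, ranked 6 at 57.2 CPM per kb in simulated microgravity and 5 at 78.0 in normal gravity. Across the 77 tested members, the log2 fold change had a Pearson correlation of -0.22 and a Spearman correlation of -0.27 with the log2 normal gravity level per kilobase, whose libraries also enter the fold change. With log2 transcript length these were -0.18 and -0.15, and with GC content 0.05 and 0.09. Members share the 6 libraries, so these values are a description only. RefSeq lists 9 pseudogenes for MRPS21, 8 for MRPL57 and 6 each for MRPL42, MRPS17, MRPS18C and MRPS36, and how the counting treated reads that match such copies is not stated.

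By evolutionary class, 18 of the 26 universal proteins fell, 8 were not called and none rose (median log2 fold change -0.66). Of the 18 proteins shared with bacteria only, 9 fell and 1 rose, with a median of -0.36. Of the 31 mitochondria-specific proteins 16 fell and 2 rose, also with a median of -0.36. Medians were negative for both of the following classes in both subunits. Among large subunit proteins 12 of 16 universal ones fell (median -0.73) and 8 of 21 mitochondria-specific ones (median -0.28). In the small subunit 6 of 10 universal ones fell (median -0.40) and 8 of 10 mitochondria-specific ones (median -0.67). Of all tested genes 29.3% fell and 28.2% rose, and the 38.1% lower among mitochondria-specific large subunit proteins was not far from that share. Differences between classes were not tested.

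Within the normal gravity group, replicate 3 was the lowest library for 57 of the 77 tested members and for 32 of the 43 that fell. The matching share of all tested genes was not counted, so these counts alone do not set the members apart. On the log2 scale, replicate 3 minus the mean of replicates 1 and 2 had a median of -0.18 over the members and -0.00434 over all tested genes. Mitochondrially encoded messenger RNAs took 7.54% to 8.60% of counts in simulated microgravity, against 10.0%, 9.97% and 12.3% in normal gravity replicates 1, 2 and 3. The part of these differences in the members' values was not tested. With mitochondrially encoded genes left out of the table, 26 MRPL and 17 MRPS members were again called lower. The 31 members not called had log2 fold changes from -0.79 to 0.22, 23 of them negative. In 8 of those every simulated microgravity library lay below every normal gravity library. The same held for 33.3% of all tested genes, so these 8 do not set the uncalled members apart. A p that misses the threshold does not show that these members were at the same level.

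Genes that start head to head with a member within 1000 bases were compared, since such pairs can share a promoter region. In 21 pairs both genes were tested, and 9 of the partners fell and 2 rose, where 29.3% of all tested genes fell and 28.2% rose. The member fell in 11 pairs, and of its partners in those pairs 6 fell, 5 were not called and none rose. MRPS27 and PTCD2, a further mitochondrial pentatricopeptide repeat protein, start 133 bases apart and both fell, PTCD2 by 0.91 ± 0.15 (adjusted p = 0.00113). MRPL40 and HIRA, a histone chaperone, start 812 bases apart and both fell, HIRA by 0.45 ± 0.13 (adjusted p = 0.0177). In other pairs only the partner was called. MRPL49 starts 49 bases from FAU, which encodes a cytosolic ribosomal protein and fell by 0.50 ± 0.11 (adjusted p = 0.00418). MRPL27 and EME1, a DNA repair nuclease subunit, start 45 bases apart, and EME1 fell by 4.02 ± 0.51 (adjusted p = 0.000299) with MRPL27 not called. MRPL46 and MRPS11 are a pair of members 320 bases apart, and neither was called, at -0.18 and -0.35. MRPS7 and GGA3, a Golgi sorting adaptor, start 273 bases apart, and GGA3 rose by 1.14 ± 0.12 (adjusted p = 9.26e-05).

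Other genes of mitochondrial translation were counted by list, to be read beside the 29.3% of all tested genes that fell and the 28.2% that rose. Among 5 mitoribosomal subunits with other names, PTCD3 (mS39), at the entry of the messenger RNA, fell by 0.40 ± 0.10 (adjusted p = 0.0102) and GADD45GIP1 (mL64) by 0.33 ± 0.12 (adjusted p = 0.0413). DAP3 (mS29), a GTP-binding small subunit protein, averaged 121 ± 1.23 CPM in simulated microgravity and 125.4 ± 12.7 CPM in normal gravity and was not called, like CHCHD1 and AURKAIP1, and the median of the 5 was -0.05. Of 30 assembly factors 14 fell and 1 rose, with a median of -0.36. The lower count was 9 without normal gravity replicate 1, and 7, 9 and 8 without simulated microgravity replicates 1, 2 and 3. Without simulated microgravity replicate 1, 3503 of all 15139 tested genes were lower, a share close to that of the 7 assembly factors. C1QBP, a matrix protein needed for mitochondrial translation, averaged 79.5 ± 7.97 CPM in simulated microgravity and 234 ± 37.4 CPM in normal gravity, a fall of 1.56 ± 0.14 (adjusted p = 5.58e-05). METTL17 fell by 0.86 ± 0.13 (adjusted p = 0.000614), and RCC1L rose by 0.30 ± 0.10 (adjusted p = 0.0289).

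Of 14 translation factors 10 fell and 1 rose, with a median of -0.53. The elongation factor TUFM averaged 98.6 ± 1.60 CPM in simulated microgravity and 165 ± 12.5 CPM in normal gravity, a fall of 0.74 ± 0.10 (adjusted p = 0.000315), and GUF1 fell by 0.97 ± 0.14 (adjusted p = 0.000635). The initiation factor MTIF3 rose by 0.37 ± 0.10 (adjusted p = 0.0123). Of 20 genes for the charging of mitochondrial tRNAs 13 fell and none rose (median -0.57), among them the synthetase CARS2 (-1.86 ± 0.17, adjusted p = 5.51e-05). The list holds aminoacyl-tRNA synthetases and the glutamyl-tRNA amidotransferase subunits GATB, which fell, and GATC and QRSL1, which were not called. Of 11 genes for mitochondrial transcription and RNA stability 5 fell, among them LRPPRC and its partner SLIRP, by 0.95 ± 0.13 (adjusted p = 0.000372) and 1.06 ± 0.15 (adjusted p = 0.00042). Without simulated microgravity replicate 1 the lower count was 3, a share close to the 3503 of 15139 tested genes lower in that fit. Of 27 tested genes for protein import and processing 18 fell and none rose (median -0.53). The smallest adjusted p were those of TIMM9 (-1.13 ± 0.12, adjusted p = 0.000121) and the peptidase MIPEP (-1.71 ± 0.20, adjusted p = 0.000203), and TIMM8A fell by 1.41 ± 0.24 (adjusted p = 0.00128).

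**Figure D5:**
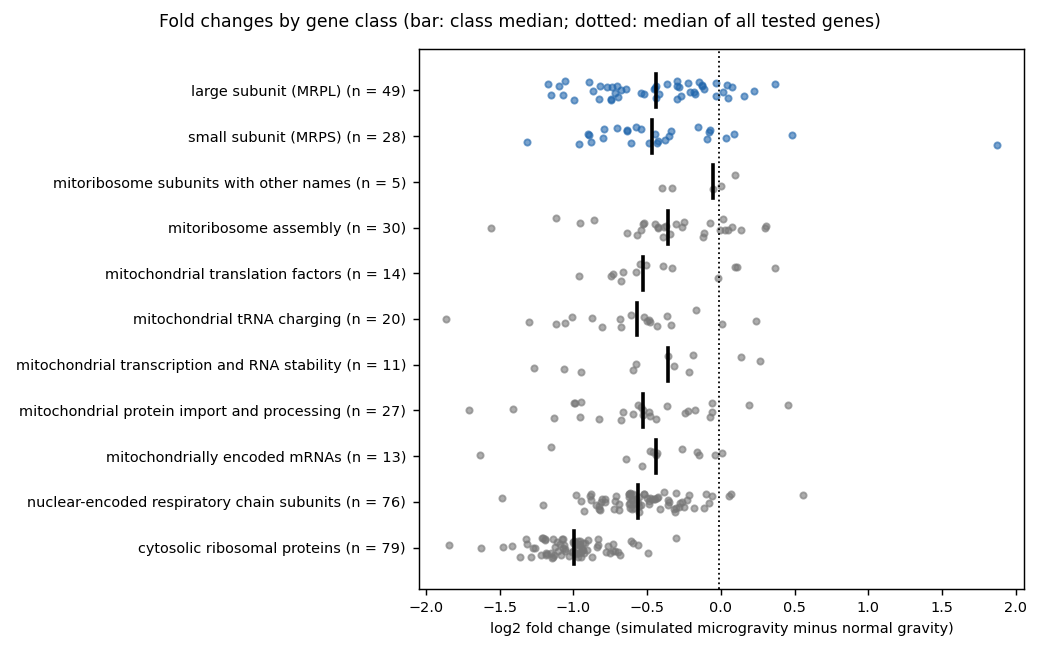
Log2 fold change (simulated microgravity minus normal gravity) of each tested gene by class, with a bar at the class median and a dotted line at the median of all tested genes, -0.01. Class medians run from -0.05 for 5 mitoribosomal subunits with other names to -0.999 for the cytosolic ribosomal proteins, with both sets of members in between.

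Of the 13 protein-coding genes of mitochondrial DNA, whose messenger RNAs mitoribosomes translate, 6 fell and none rose (median -0.44). Of all tested genes 29.3% fell. Without simulated microgravity replicate 2, 3 of the 13 fell, and without replicate 3, 2 fell. In those fits 3964 of 15227 and 3611 of 15152 tested genes were lower, so the share of the 13 was not above that of all genes. ND6, the complex I subunit encoded on the strand opposite to the others, averaged 122 ± 1.11 CPM in simulated microgravity and 378 ± 79.8 CPM in normal gravity, a fall of 1.63 ± 0.16 (adjusted p = 7.24e-05). COX3, of cytochrome c oxidase, fell by 1.15 ± 0.17 (adjusted p = 0.000584), while ND1 was not called at 0.01 ± 0.16 (adjusted p = 0.967). The mitochondrial ribosomal RNAs, the partners of the member proteins, were not analysed here. Nuclear-encoded respiratory chain subunits fell in 60 of 76 cases and rose in none, with a median of -0.56, and summed to 4974 ± 272 CPM in simulated microgravity and 7590 ± 313 CPM in normal gravity (SD, n = 3 each). ATP5MC1 and ATP5MC3, copies of the ATP synthase c subunit, fell by 1.49 ± 0.12 (adjusted p = 3.11e-05) and 1.20 ± 0.09 (adjusted p = 2.59e-05). Cytosolic ribosomal proteins fell in 76 of 79 cases and rose in none, with a median of -0.999, and summed to 31448 ± 5035 CPM in simulated microgravity and 66256 ± 4353 CPM in normal gravity. The interquartile range of their fold changes was 0.22, against 0.60 for the mitoribosomal members. Differences between these classes and the members were not tested.

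Of 8 tested regulators of nuclear mitochondrial genes 3 fell and 4 rose, where 29.3% of all tested genes fell and 28.2% rose. With a library left out, 2 to 3 fell and 2 to 5 rose. MYC, a driver of ribosome biogenesis, averaged 86.4 ± 13.2 CPM in simulated microgravity and 404 ± 68.8 CPM in normal gravity, a fall of 2.22 ± 0.17 (adjusted p = 2.26e-05), and PPARGC1B, a coactivator of mitochondrial biogenesis, fell by 1.64 ± 0.20 (adjusted p = 0.000236). GABPA, the ETS factor whose core was counted in the promoters, averaged 42.7 ± 2.19 CPM in simulated microgravity and 23.2 ± 2.13 CPM in normal gravity and rose by 0.88 ± 0.12 (adjusted p = 0.000347). NRF1 rose by 0.63 ± 0.15 (adjusted p = 0.00776). YY1 was not called, at 0.20 ± 0.10 (adjusted p = 0.101).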

How the data were processed

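Per the labels' protocols, total RNA of HSC-3 cells was sequenced as 150-base paired-end reads. The values deposited by the authors are raw read counts for each gene, in 1 table that covers all 6 libraries. Tools named in the submitters' processing notes are fastp, HISAT and HTSeq, with R 3.2.0 and DESeq2, and the build is hg38. The sources used here do not give the annotation release, strand setting or RNA selection. Column names carry a group abbreviation and a number, and the abbreviation that the treatment protocol does not explain was taken as normal gravity, since there is no further group.

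Of 22941 genes, 14736 passed filterByExpr (minimum count 10). Counts were scaled by TMM and tested with edgeR 4.0.16 in R 4.3.3 (robust quasi-likelihood F-test, Benjamini-Hochberg adjustment over all tested genes, threshold 0.05). The standard error is the size of the log2 fold change over the root of F. CPM use TMM-scaled totals. The test was also run on counts simulated from this fit with few genes changed. That setting is unlike these data, and no result here rests on it. Replicates differed by more than sampling noise in every pair. Same-numbered libraries of the groups did not deviate together (correlations 0.049, -0.044 and -0.017), so the fit has no replicate block.

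The members and the gene lists were chosen with earlier results of these data known. Members with values per library are those with the 6 smallest and 3 largest adjusted p per subunit, those that rose, the 2 most abundant per subunit, the MRPS18 paralogs and those under the filter. MRPL12, MRPL17, MRPS22 and MRPS28, the members given by fold change alone and the structural grouping were chosen after their values were seen, as were partners named in pairs and unified names as a grouping. Transcript lengths, exons and GC content are from GENCODE v29. Starts, coordinates, unified names and promoter sequences are from RefSeq GRCh38.p14. Alternatives were other scalings, filters and tests (DESeq2 1.42.0, limma-voom with limma 3.58.1), a replicate block, a length and GC correction, and each library left out.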

Additional observations from a re-analysis of the deposited data

How the results depend on the processing

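The medians of both subunits stayed negative under every setting tried. Over 16 alternative fits, 33 of the 43 lower members were called lower in every one, and 42 were negative in every one, MRPL50 turning to 0.0079 with the length and GC correction. Leaving out 1 library gave 20 to 30 lower MRPL members and 14 to 20 lower MRPS members, with medians from -0.43 to -0.36 and -0.52 to -0.45. The number of all genes called lower also moved over these fits, from 3503 to 4722. Upper-quartile scaling shifted the median of all genes to -0.09 and gave 32 and 20 lower members, with 55.8% of all calls lower. The few rises depended on the setting. The number of MRPL members called higher was 0 with upper-quartile scaling, no low-count filter, the replicate block and the length and GC correction, 0 to 1 with a library left out, and 2 by unified name. For MRPS it was 1 without the filter, with the length and GC correction and by unified name, and 1 to 2 with a library left out. MRPS6 was called in every alternative, MRPS18A was lost in 5 (the largest adjusted p 0.0990, with the length and GC correction) and MRPL53 in 10. With the replicate block, 24 MRPL and 17 MRPS members were lower and MRPL53 had an adjusted p of 0.0867; the numbers do not pair the libraries. Of 31 members not called, 14 were called in some alternative. The median of mitoribosomal subunits with other names ranged from -0.13 to 0.0021 with a library left out, the positive value without normal gravity replicate 1. The grouping by unified name was added after seeing the data. Low counts limit MRPS24 and MRPS28.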

Other observations

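MRPL20-AS1, a non-coding gene antisense to MRPL20, averaged 31.5 ± 2.66 CPM in simulated microgravity and 22.6 ± 2.03 CPM in normal gravity (SD, n = 3 each) and rose by 0.48 ± 0.13 on the log2 scale (edgeR, adjusted p = 0.0119). MRPL20 itself (bL20m) averaged 41.7 ± 2.47 CPM in simulated microgravity and 48.3 ± 9.86 CPM in normal gravity and was not called (-0.21 ± 0.16, adjusted p = 0.277). Without the strand setting of the counting, reads of the overlapping parts of such pairs cannot be told apart. Both were picked after their values were seen.

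Some partners that share exonic bases with a member on the opposite strand changed more than the member or the other way. NCAPD2, a condensin subunit that overlaps 29.9% of the exonic bases of MRPL51, averaged 48.4 ± 5.19 CPM in simulated microgravity and 270.4 ± 61.5 CPM in normal gravity, a fall of 2.48 ± 0.18 (adjusted p = 2.05e-05). MRPL51 (mL51) fell by 0.77 ± 0.16 (adjusted p = 0.00306). SARS2, the mitochondrial seryl-tRNA synthetase, overlaps 21.5% of the exonic bases of MRPS12 and fell by 1.06 ± 0.18 (adjusted p = 0.00121). Other partners rose while the member fell. SSBP3, which overlaps only 1.8% of the exonic bases of MRPL37, rose by 1.40 ± 0.21 (adjusted p = 0.000699). ABHD8 (16.5% of MRPL34) rose by 0.87 ± 0.18 (0.00372) and NR2C2 (16.5% of MRPS25) by 0.72 ± 0.12 (0.000986). MRPL34 fell by 0.52 ± 0.16 (adjusted p = 0.0222) and MRPS25 by 0.90 ± 0.15 (0.00118). Of the 78 members 43 share no exonic base with another GENCODE gene, and 4 share at least 50%.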
